A study of Mus musculus with 17 samples.

Results

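The genes described here are 45 structural genes of the lung extracellular matrix and its close modifiers. They are a fixed list of gene symbols, drawn up with earlier results of these data known. They comprise 6 fibrillar collagens, 7 other interstitial collagens, 12 elastic fibre genes, 13 basement membrane genes, 5 small proteoglycans and matricellular genes, and 2 matrix enzymes. All 45 symbols were found among the 54146 genes of the files, and all 45 had enough counts to be among the 19557 genes tested. RNA was measured by sequencing of whole mouse lung in 17 libraries from 4 groups, all carrying the strain label FVB/6DT1: 5 Clic4 knockout (KO) libraries at day 14, 6 wild-type (WT) libraries at day 14, 2 KO libraries at day 0 and 4 WT libraries at day 0. The day 14 libraries came from mice labelled 8 weeks old and the day 0 libraries from mice labelled 6 weeks old, so day and age cannot be told apart. The labels do not say what was done between the days, how the Clic4 allele was made or which cells lack it, and nothing ties a library to a named animal, so p-values measure the spread between these libraries. The series' design text gives other group sizes than the sample labels, which were followed here. The questions the design poses are what loss of Clic4, a chloride intracellular channel family protein, does to the lung at each day, and what differs between the days.

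Lung matrix is built in layers. Fibrillar collagens are secreted as triple-helical procollagens, trimmed and cross-linked into tension-bearing fibres; type VI and the FACIT collagens sit on and between those fibres. Elastic fibres, which let the lung recoil, form when tropoelastin is deposited on a scaffold of fibrillin microfibrils with the help of fibulins and is cross-linked by lysyl oxidases. Basement membranes under the epithelium and around the capillaries are sheets of laminin and type IV collagen, joined by nidogens and perlecan.

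Total counts ran from 20607811 to 35743830 per library. Mitochondrial genes took 1.98% to 2.58% of them. Clic4 itself averaged 335.8 CPM (counts scaled to library size; 301.5 to 399.1, n = 5) in KO and 1043 CPM (927.1 to 1281, n = 6) in WT at day 14. At day 0 it averaged 325.9 CPM (324.4 to 327.5, n = 2) in KO and 943.3 CPM (924.7 to 953.2, n = 4) in WT, so Clic4 reads were fewer in every KO library but not gone. Markers of the lung were abundant: the alveolar surfactant gene Sftpc ran from 16760 to 23280 FPKM (fragments scaled to gene length and library size), and the endothelial gene Pecam1 from 328.2 to 363.6 FPKM. Cartilage markers were at or near 0, with a summed level of 7 genes of at most 0.70 FPKM in any library. In whole lung RNA, fewer cells of a type and less RNA per cell cannot be told apart.

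By FPKM, the unit that allows levels of different genes to be compared per length, the 45 genes spanned a wide range. Sparc, a collagen-binding matricellular glycoprotein, averaged 892 FPKM over the 17 libraries. Next came the small leucine-rich proteoglycan biglycan (Bgn, 630 FPKM), the microfibril-associated Mfap4 (457 FPKM) and the basement membrane chain Col4a1 (262 FPKM). The classes differed in the level of their leading member. Among fibrillar collagens it was Col3a1 at 253 FPKM, among other interstitial collagens Col6a1 at 102 FPKM, and among matrix enzymes Loxl2, a lysyl oxidase that cross-links collagen, at 10.9 FPKM. Elastin (Eln) averaged 83.1 FPKM and its microfibril scaffold fibrillin-1 (Fbn1) 14.7 FPKM. At the low end were Lum at 3.70 FPKM, Col5a3 at 1.36 FPKM and the secreted protease Adamts12 at 0.576 FPKM. Neighbours in this order were mostly not separated: of the 44 neighbouring pairs, the ranges over 17 libraries failed to overlap in 1, Col4a2 above Col1a2, and 7 pairs kept their order within every library.

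**Figure D1:**
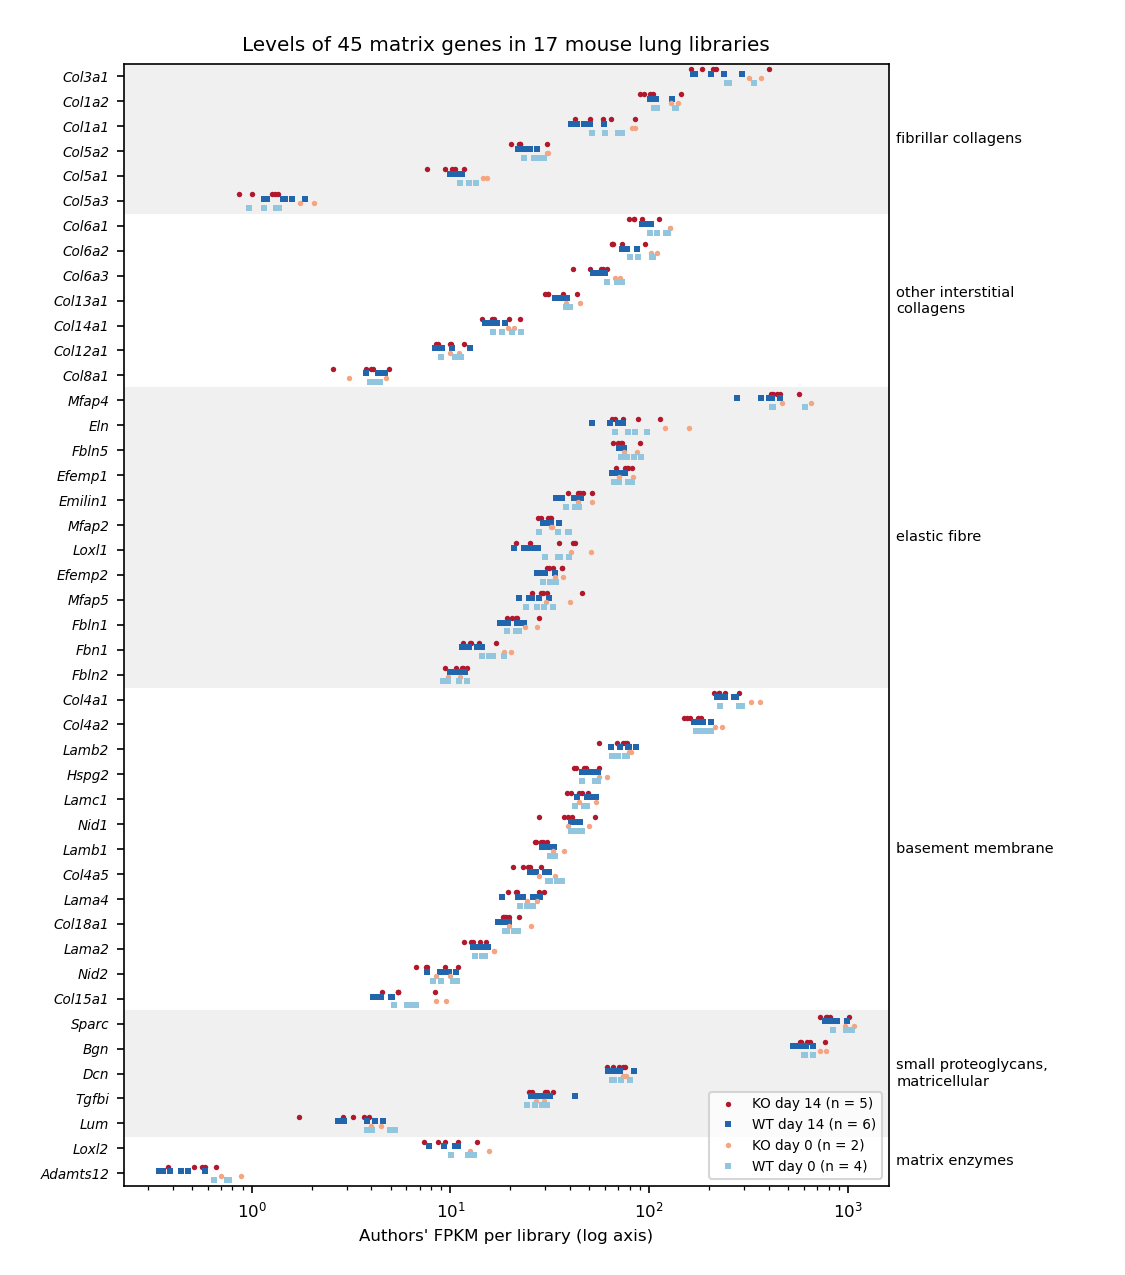
Level of each of the 45 matrix genes in each of the 17 libraries, as the authors' FPKM on a log axis, by matrix class and ordered by mean level. Colours and marks show the 4 groups; most genes' groups overlap, and the spread between genes, from 0.576 FPKM for Adamts12 to 892 FPKM for Sparc, is far wider than that between libraries of a gene.

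Chains of 1 protein differed in how fixed their proportions were. Type VI collagen is assembled from Col6a1, Col6a2 and Col6a3 chains, and the FPKM ratio of Col6a1 to Col6a2 was 1.24 ± 0.0433 in KO at day 14 (SD, n = 5), 1.23 ± 0.0357 in WT at day 14 (n = 6), 1.20 ± 0.0491 in KO at day 0 (n = 2) and 1.22 ± 0.0424 in WT at day 0 (n = 4). The ratio of Col6a1 to Col6a3 was looser in KO at day 14, at 1.69 ± 0.249, but not clearly so in the other groups. It was 1.72 ± 0.0478 in WT at day 14, and 1.84 ± 0.0717 in KO and 1.65 ± 0.0545 in WT at day 0. Type IV collagen of most basement membranes holds Col4a1 and Col4a2 chains, whose ratio ran from 1.28 to 1.55 over the 17 libraries. Type I collagen is a heterotrimer of Col1a1 and Col1a2 chains. Its Col1a1 to Col1a2 ratio was 0.558 ± 0.0837 in KO and 0.446 ± 0.0420 in WT at day 14, and 0.622 ± 0.0497 in KO and 0.523 ± 0.0280 in WT at day 0. That ratio had a higher mean in KO at both days, with overlapping libraries at day 14, where KO ran from 0.470 to 0.685 and WT from 0.395 to 0.495; it was picked out after the values were seen and has no test.

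Col4a1 and Col4a2 are transcribed in opposite directions from 1 shared control region on chromosome 8, and in the RefSeq annotation of GRCm38.p6 their first transcribed bases overlap. The shared stretch is shown because this pair moved together. It spans chr8:11312805-11312826, is given on the plus strand, and its capitals mark a GGGCGG box, the core of the binding sequence of Sp1-type factors.
Col4a1 and Col4a2 shared start: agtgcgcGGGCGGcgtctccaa
Over the 17 libraries the log2 CPM of both chains had a Pearson r of 0.958, and that of Col6a1 with Col6a2, which lie 85.2 kb apart on chromosome 10, had an r of 0.990. Col3a1 and Col5a2, 24.6 kb apart on chromosome 1, had an r of 0.937, and Col1a1 with Col3a1, which lie on different chromosomes, 0.939. The median over all 990 pairs of the 45 genes was 0.441, within fibrillar collagens 0.798, within basement membrane genes 0.578, within elastic fibre genes 0.561 and within the small proteoglycan and matricellular class -0.01. These are descriptions: the points share libraries, groups and scaling.

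The comparison of day 14 with day 0 asks what changed in the lung over the interval. Averaged over both genotypes, 4 of the 45 genes passed the test (edgeR's quasi-likelihood test, Benjamini-Hochberg adjusted p under 0.05 over all genes tested), and all 4 were lower at day 14; over all genes tested 0.194% passed in either direction and 0.118% were lower. The 4 came from 4 classes: the interstitial collagen Col6a1, the fibrillar collagen Col5a1, which helps start fibrils and limits their width, the microfibril gene Fbn1, and Adamts12, a secreted metalloprotease. Of the 45 fitted log2 fold changes, 43 lay below 0, against 47.7% of all genes, and their median was -0.21, against 0.01 over all genes. The 45 genes vary together across libraries (median r of 0.441). Counts of genes here and below are therefore not counts of separate observations.

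Col6a1 had 355.7, 444.6, 321.4, 326.1 and 313.8 CPM in the 5 KO libraries of day 14, against 491.6 and 504.2 CPM in KO at day 0. In WT it had a lowest, median and highest value of 360.0, 371.7 and 394.0 CPM at day 14, against 475.5, 487.0, 425.0 and 390.5 CPM at day 0. All KO libraries of day 14 were below both of day 0, while in WT 1 library of day 0 fell within the range of day 14. The averaged log2 fold change was -0.37 (SE 0.0671), which is 77.2% of the day 0 level, with an adjusted p of 0.0482 by edgeR.

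Col5a1 had 86.0, 98.2, 76.4, 62.6 and 82.9 CPM in KO at day 14, against 118.9 and 127.3 CPM in KO at day 0. WT libraries had 80.3, 89.2 and 95.1 CPM as lowest, median and highest value at day 14, against 109.8, 102.0, 109.5 and 90.7 CPM at day 0. Here too the KO groups were apart and the WT groups overlapped through 1 library of day 0. The averaged log2 fold change was -0.41 (SE 0.0751), or 75.2% of the day 0 level, with an adjusted p of 0.0482.

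Fbn1 had 133.1, 166.8, 120.1, 111.2 and 124.3 CPM in KO at day 14, against 178.6 and 196.6 CPM in KO at day 0. In WT the lowest, median and highest value were 109.8, 125.9 and 142.9 CPM at day 14, against 176.9, 151.7, 156.7 and 138.2 CPM at day 0. The KO groups were apart, and in WT the lowest library of day 0 lay below the highest of day 14. Its log2 fold change was -0.41 (SE 0.0819), or 75.0% of the day 0 level, with an adjusted p of 0.0482. In the annotation 20.1% of the exonic bases of Fbn1 are shared with Gm9913, a gene on the opposite strand, and whether strand was used in counting is not given in the sources used here, so reads over that stretch cannot be assigned to either gene.

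Adamts12 had 5.23, 4.33, 4.54, 3.17 and 4.45 CPM in KO at day 14, against 6.88 and 5.99 CPM in KO at day 0. WT libraries had 2.83, 3.45 and 5.01 CPM as lowest, median and highest value at day 14, against 6.17, 6.42, 6.33 and 5.41 CPM at day 0. Every library of day 14 lay below every library of day 0 within each genotype and across them, the single gene of the 45 for which this held; over all genes 0.0972% were apart in that direction. Its log2 fold change of -0.66 (SE 0.123), or 63.4% of the day 0 level, had an adjusted p of 0.0482.

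**Figure D2:**
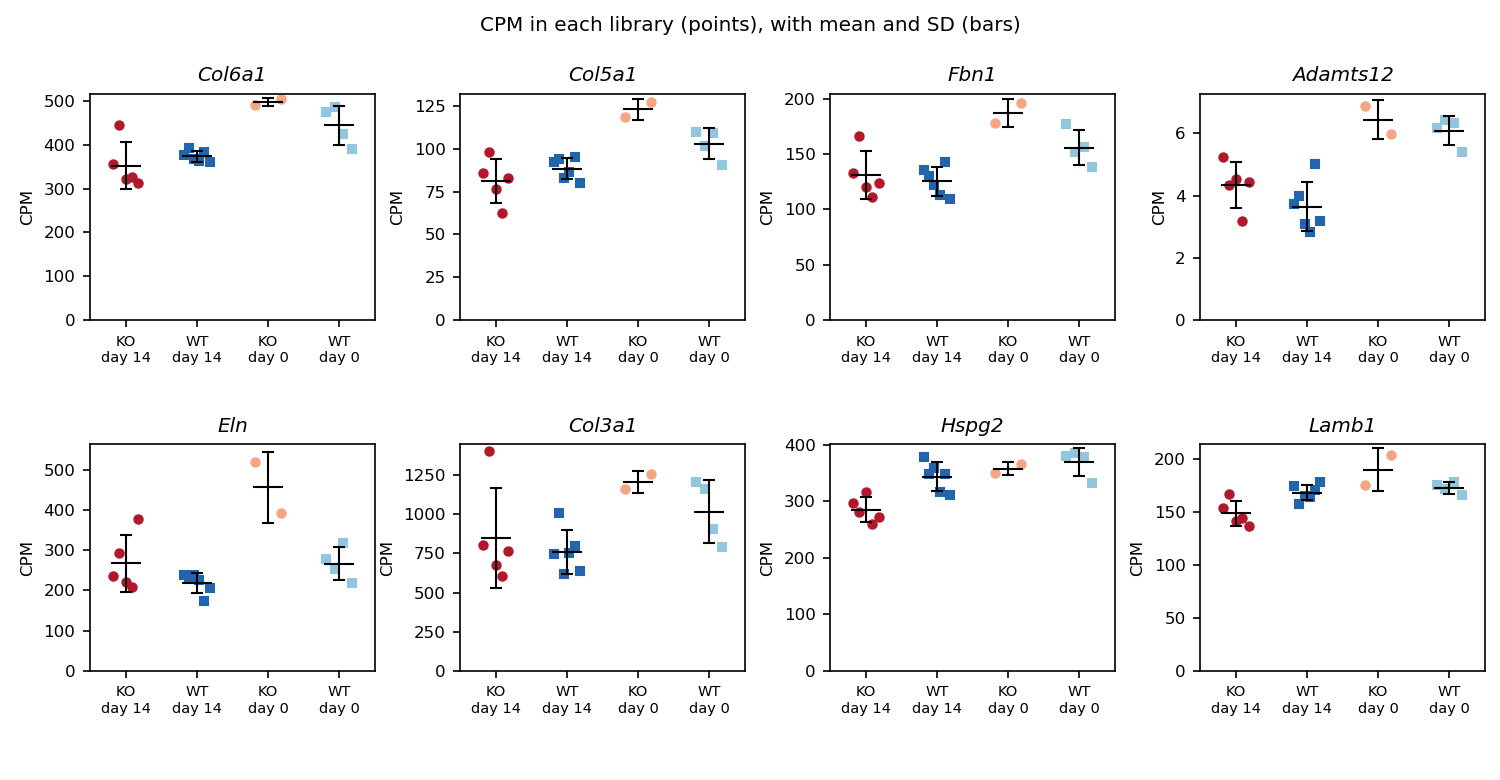
CPM in each library (points) with the mean and SD of each group (bars) for the 4 genes that passed the test between days (upper row) and for Eln, Col3a1, Hspg2 and Lamb1 (lower row). In the upper row the day 14 groups sit below the day 0 groups of the same genotype, without overlap for Adamts12.

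The calls were near the threshold and rested on the sample set. Leaving out 1 library at a time gave 0 to 15 of the 45 genes: 15 (of 120 genes called in all) without KO day 14 replicate 2, 7 (of 175) without KO day 14 replicate 5, 8 (of 251) without WT day 14 replicate 5, and 0 without any other single library. DESeq2 on the same libraries called 15 of the 45 genes and 2.51% of all genes; limma-voom called 3 and 0.0972%. Over the alternatives that kept each gene the adjusted p ran from 0.000394 to 0.119 for Col6a1, from 0.000497 to 0.119 for Col5a1, from 0.00122 to 0.141 for Fbn1 and from 0.000258 to 0.163 for Adamts12.

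Among the genes that did not pass, Col6a2 had a log2 fold change of -0.40 (adjusted p 0.0502) and Col6a3, the third type VI chain, -0.31 (adjusted p 0.0687). The basement membrane genes Col4a1, Col4a2, Hspg2 (perlecan, the heparan sulfate proteoglycan of basement membranes), Lamb1 (a laminin beta chain) and Col15a1 lay between -0.20 and -0.48, and Eln at -0.53, with adjusted p-values of 0.0779 to 0.0850. At an unadjusted p under 0.05, 25 of the 45 genes were lower and 0 higher, against 6.71% of all genes lower. By class these were 5 of 6 fibrillar collagens, 4 of 7 other interstitial collagens, 4 of 12 elastic fibre genes, 7 of 13 basement membrane genes, 3 of 5 small proteoglycans and matricellular genes and 2 of 2 matrix enzymes. The class medians were -0.34 for fibrillar collagens, -0.21 for other interstitial collagens, -0.14 for elastic fibre genes, -0.15 for basement membrane genes and -0.14 for small proteoglycans and matricellular genes. Tgfbi, a collagen-binding adhesion protein, and Col8a1 were the 2 genes with a value above 0, at 0.09 and 0.03.

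Promoters are shown for the genes that fell and for which the RefSeq table (GRCm38.p6) holds 250 bases before the start free of annotated exons, which left 2 of the 4. The window of Col5a1 is chr2:27886175-27886424, plus strand, with 76.4% G and C; that of Adamts12 is chr15:11064523-11064772, plus strand, with 63.2%. Capitals mark GGGCGG on either strand (its complement reads CCGCCC).
Col5a1 promoter: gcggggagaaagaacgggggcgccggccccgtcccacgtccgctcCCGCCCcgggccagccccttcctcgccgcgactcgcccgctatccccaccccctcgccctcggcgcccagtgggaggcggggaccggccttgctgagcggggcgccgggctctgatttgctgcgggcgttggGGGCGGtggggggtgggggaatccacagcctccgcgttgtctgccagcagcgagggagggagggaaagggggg
Adamts12 promoter: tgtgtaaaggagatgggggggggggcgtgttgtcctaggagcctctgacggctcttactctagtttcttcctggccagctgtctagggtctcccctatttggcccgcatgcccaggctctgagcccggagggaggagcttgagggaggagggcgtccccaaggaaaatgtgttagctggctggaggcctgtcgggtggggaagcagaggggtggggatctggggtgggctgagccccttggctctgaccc
Besides this box, both strands were searched for the CCAAT box and for the TATA box spelled TATAAA. Matches of different motifs can share bases at their ends, and each was then counted. Col5a1 held 2 matches of GGGCGG, the nearer 73 bases before the start, and neither of the other motifs, and Adamts12 held none of the motifs. Windows were found for 31 of the 45 genes, 38 windows in all, so some genes had more than 1. Windows that hold annotated exons, such as those of Col6a1 and Fbn1, were kept in this count. CCAAT was held by 10 of the 38, against 33.9% of 32851 windows of this length over all genes. GGGCGG was held by 23 of the 38, against 32.7%. TATAAA was held by 2 of the 38, against 12.4%. These matches are descriptions of letters, not sites, and the shares were not adjusted for G and C content.

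Within each genotype no gene of the 45 passed the edgeR test between days, and none of all genes did (0%). In KO, 44 of the 45 values lay below 0 with a median of -0.29, against 47.3% and 0.01 over all genes; 22 genes were lower and 0 higher at an unadjusted p under 0.05, against 4.72% of all genes lower. DESeq2 called 8 (Col4a1, Col4a2, Col5a1, Col6a1, Col6a2, Eln, Fbn1 and Lamb1; 0.476% of all genes) and limma-voom 0 (0% of all genes). In 14 of the 45 genes every KO library of day 14 was below both of day 0, against 6.2% of all genes. In WT, 37 of the 45 lay below 0 with a median of -0.12, against 49.6% and 0.00; 11 were lower and 0 higher at an unadjusted p under 0.05, against 4.34% of all genes lower. DESeq2 called 1, Adamts12 (0.579% of all genes), limma-voom 0 (0.00511%), and the groups were apart for 2, Adamts12 and Loxl1, against 1.38% of all genes.

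The KO and WT comparisons between days share no library. Both values were below 0 for 37 of the 45 genes (82.2%), against 28.4% of all genes. The KO value was the lower of both for 37 genes, among them all 6 fibrillar collagens, all 13 basement membrane genes and all 5 small proteoglycans and matricellular genes, but 7 of 12 elastic fibre genes; over all genes it was the lower for 48.9%.

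**Figure D3:**
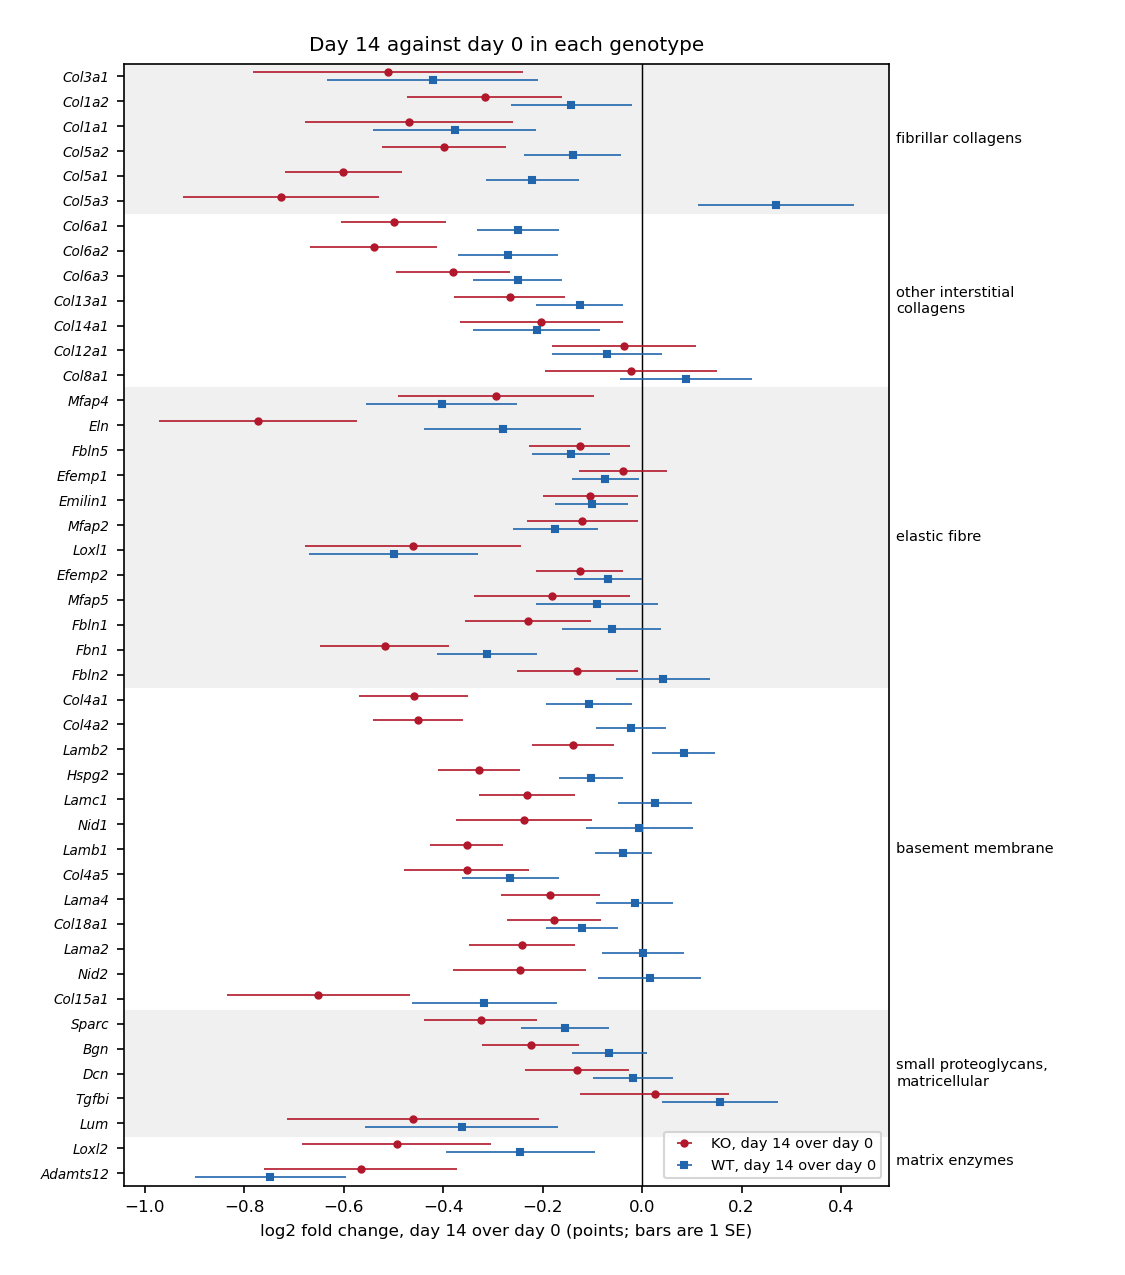
Fitted log2 fold change of day 14 over day 0 in KO (circles) and WT (squares) for each of the 45 genes by class; bars are 1 SE. Most points lie left of 0, and for basement membrane genes the KO points lie left of the WT points, of which 9 of 13 lie left of 0.

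The values farthest from 0 in KO belonged to Eln and to Col5a3, which had -0.73 (SE 0.197, adjusted p 0.252 by edgeR). Eln had 235.6, 292.6, 220.2, 209.7 and 379.0 CPM in KO at day 14, against 519.3 and 394.1 CPM in KO at day 0. The groups did not overlap, though the highest library of day 14 came close to the lower of day 0, and the log2 fold change of -0.77 (SE 0.199) had an adjusted p of 0.241. Col4a2 had a value of -0.45 (SE 0.0901, adjusted p 0.158) in KO and -0.02 in WT, and Lamb1 -0.35 (SE 0.0733, adjusted p 0.161) in KO and -0.04 in WT. Loxl1, the lysyl oxidase that works on elastic fibres, had -0.46 in KO and -0.50 in WT, and Mfap4 -0.29 in KO and -0.40 in WT. KO day 14 replicate 2 was the highest of its group for 32 of the 45 genes. Without it 8 of the 45 genes (Col4a1, Col4a2, Col5a1, Col5a2, Col6a1, Col6a2, Fbn1 and Lamb1) were among 12 genes that edgeR called in KO.

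The comparison of KO with WT at day 0 asks what the Clic4 genotype does before the interval. No gene of the 45 passed (edgeR, DESeq2 and limma-voom alike), and of all genes 5 did by edgeR, which is 0.0256%, against 0.133% by DESeq2 and 0.0153% by limma-voom. At an unadjusted p under 0.05, 8 of the 45 were higher in KO and 0 lower, against 3.15% of all genes higher. Values above 0 were found for 38 of the 45, against 50.2% of all genes, with a median of 0.14 against 0.00. In 14 genes both KO libraries lay above all 4 WT libraries, against 8.88% of all genes, and in 0 the reverse. The 2 KO libraries of day 0 stand in this comparison and in that between days within KO, so a high value in them raises the one and lowers the other, and both are not separate evidence.

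Eln had the smallest p of the 45 at day 0: 519.3 and 394.1 CPM in KO, against 277.9, 252.7, 317.7 and 219.2 CPM in WT. Both KO libraries were above the WT libraries, though far from each other, and the log2 fold change was 0.78 (SE 0.208, unadjusted p 0.00202, adjusted p 0.581 by edgeR). Col5a3, a minor type V chain, had 10.3 and 12.4 CPM in KO, against 8.15, 5.75, 7.86 and 6.81 CPM in WT, and a log2 fold change of 0.67 (adjusted p 0.619). Col15a1, a proteoglycan collagen between basement membrane and fibres, had 34.2 and 36.9 CPM in KO, against 26.1, 20.9, 24.6 and 21.4 CPM in WT, and 0.61 (adjusted p 0.619). For both genes the groups did not overlap. Bgn, which binds collagen and microfibrils, had 1534 and 1463 CPM in KO, against 1216, 1328, 1208 and 1222 CPM in WT, with a log2 fold change of 0.27 (adjusted p 0.697).

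At day 14 no gene of the 45 passed between KO and WT by edgeR or limma-voom, against 0.107% of all genes by edgeR and 0.0818% by limma-voom, and DESeq2 called 1, Hspg2 (0.558% of all genes). The classes lay on different sides of 0. Of 12 elastic fibre genes 10 had values above 0, with a median of 0.13; of 13 basement membrane genes 11 had values below 0, with a median of -0.17; the median over all genes was 0.00 and 50.3% of genes lay above 0. At an unadjusted p under 0.05, 3 of the 45 were higher and 7 lower, against 4.92% higher and 4.03% lower of all genes. The 3 were the elastic fibre genes Loxl1, Mfap5 and Efemp2, and the 7 were 6 basement membrane genes and Col5a3. The groups overlapped for all 45 genes; 0.583% of all genes were apart upward and 0.394% downward.

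Among elastic fibre genes, Loxl1 had 108.6, 133.8, 76.9, 66.3 and 130.6 CPM in KO at day 14, against 64.4, 77.0 and 87.2 CPM as lowest, median and highest value in WT. Of the KO libraries 3 were above the WT range and 2 within it, and the log2 fold change was 0.43 (SE 0.161, unadjusted p 0.0175, adjusted p 0.441). At day 0 Loxl1 had 156.4 and 127.3 CPM in KO, against 122.9, 110.2, 107.6 and 92.3 CPM in WT, without overlap, and a value of 0.39. Mfap5, a microfibril component, averaged 34.1 ± 7.51 CPM in KO (n = 5) and 27.8 ± 2.20 CPM in WT (n = 6) at day 14, with a log2 fold change of 0.29, and 0.38 at day 0. Efemp2, a fibulin which is needed to bring lysyl oxidase to tropoelastin, had 0.14 and 0.20 on the same days. Eln had 0.28 (SE 0.149, unadjusted p 0.0773) at day 14. For 10 of the 12 the KO values were above 0 on both days, which share no library, against 28.7% of all genes. The 12 genes vary together (median r of 0.561), so their signs are not separate observations, and some lay near 0 (Fbln5 0.02 and 0.01). Mfap2, a microfibril gene 5.74 Mb from Clic4 on chromosome 4, was below 0 on both days. Fbln2 was below 0 at day 14 and above 0 at day 0, with both signs turned on the log2(FPKM + 1) scale.

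Averaged over both days, no gene of the 45 passed by edgeR or limma-voom (of all genes 0.102% passed by edgeR and 0.0818% by limma-voom), and DESeq2 called 2, Eln and Col15a1 (0.696% of all genes). Eln had an averaged log2 fold change of 0.53 (SE 0.128, adjusted p 0.176) and Col15a1 0.44 (SE 0.118, adjusted p 0.188). Of 8 genes with higher values at an unadjusted p under 0.05, against 5.27% of all genes, 5 were elastic fibre genes (Eln, Mfap5, Efemp2, Loxl1 and Fbln1) and the others Col15a1, Bgn and Col1a1; Hspg2 was the 1 lower gene, at -0.16, against 4.87%. On the log2(FPKM + 1) scale the averaged Hspg2 value turned to 0.03.

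Among basement membrane genes at day 14, Hspg2 had 297.1, 280.3, 315.8, 260.0 and 271.8 CPM in KO, against 311.2, 348.7 and 378.0 CPM as lowest, median and highest value in WT. Of the KO libraries 4 lay below all WT libraries and the highest lay above the lowest WT library, and the log2 fold change was -0.27 (SE 0.0608, unadjusted p 0.000308, adjusted p 0.116). At day 0 it had 349.5 and 366.2 CPM in KO, against 379.6, 385.7, 379.1 and 332.6 CPM in WT, and a value of -0.05. The authors' FPKM gave another picture of Hspg2. At day 14 it had 48.3, 55.8, 47.1, 41.9 and 42.8 FPKM in KO, against 45.7 to 54.98 FPKM in WT, a difference of -0.10 on the log2(FPKM + 1) scale. At day 0 it had 61.4 and 55.9 FPKM in KO, against 55.3, 55.5, 53.6 and 45.8 FPKM in WT, so both KO libraries lay above WT and the difference was 0.16. Hspg2 lies at chr4:137468769-137570630, 2.20 Mb from Clic4 (chr4:135213969-135272814), so a gene linked to the knockout allele and an effect of the loss of Clic4 cannot be told apart for it. The laminin chains are spread over other chromosomes. Lamb1 had 153.9, 166.7, 141.6, 144.3 and 137.3 CPM in KO, against 157.7, 167.9 and 178.2 CPM as lowest, median and highest value in WT. The groups overlapped through the highest KO library, and the log2 fold change was -0.18 (SE 0.0541, adjusted p 0.335). Lamc1, the gamma chain of most lung laminins, averaged 238.6 ± 24.9 CPM in KO (n = 5) and 276.5 ± 18.4 CPM in WT (n = 6), with -0.21 (adjusted p 0.390), and Lamb2 266.8 ± 22.1 and 298.2 ± 13.9 CPM, with -0.16 (adjusted p 0.431). Nid2, a nidogen that links laminin with type IV collagen, had -0.29 (adjusted p 0.390); 8.45% of its exonic bases are shared with Rtraf on the opposite strand. Col4a2 had -0.17 (adjusted p 0.450) and Col4a1 -0.14. Col15a1 and Col18a1, whose cleaved ends are known as restin and endostatin, were the 2 with values above 0, at 0.28 and 0.08.

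**Figure D4:**
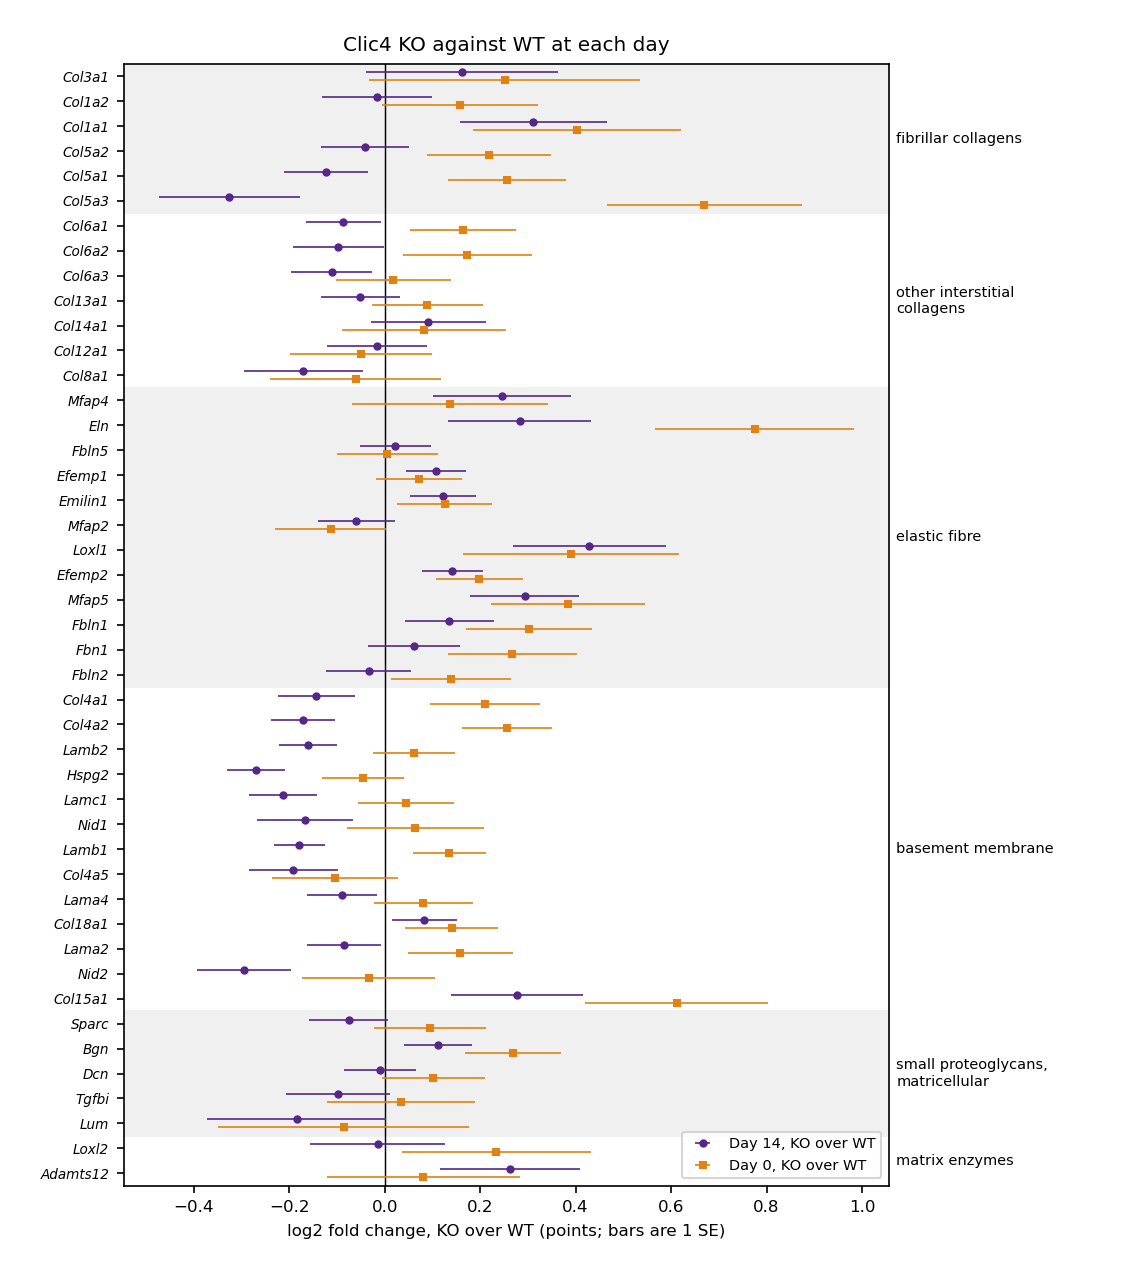
Fitted log2 fold change of KO over WT at day 14 (circles) and day 0 (squares) for each of the 45 genes by class; bars are 1 SE. Elastic fibre genes lie right of 0 on both days in 10 of 12 cases, while 11 of 13 basement membrane genes lie left of 0 at day 14 and right of their day 14 point at day 0.

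Among the remaining classes, fibrillar collagens lay above 0 in 2 of 6 cases at day 14 (median -0.03), Col1a1 (0.31) and Col3a1 (0.16), and in 6 of 6 at day 0 (median 0.25). Other interstitial collagens had medians of -0.09 at day 14 and 0.08 at day 0, with no unadjusted p under 0.05 at either day. Small proteoglycans and matricellular genes had medians of -0.08 at day 14 and 0.09 at day 0. Among them decorin (Dcn), a collagen-binding relative of biglycan, averaged 109.1 ± 7.48 CPM in KO at day 14, against 109.9 ± 13.2 CPM in WT. Lum, a related proteoglycan 47.0 kb from Dcn on chromosome 10, averaged 6.99 ± 1.92 CPM in KO, against 7.96 ± 1.83 CPM in WT. Of the matrix enzymes, Adamts12 had 0.26 at day 14 and 0.08 at day 0 (unadjusted p 0.0898 and 0.692), and Loxl2 -0.01 and 0.23.

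The interaction, the KO effect at day 14 minus that at day 0, tests whether the genotype effect differs between the days. It equals the day effect in KO minus that in WT. Its counts below 0 therefore repeat those of genes with the lower day value in KO, given above, and are not separate evidence. No gene of the 45 and none of all genes (0%) passed by edgeR; limma-voom called 0 of all genes (0%), and DESeq2 0 of the 45 and 0.0461% of all genes. At an unadjusted p under 0.05, 8 of the 45 had values below 0 and 0 above, against 2.03% of all genes below; 6 of the 8 were basement membrane genes and the others Col5a3 and Col5a1. Col5a3 had the largest value, -0.995 (SE 0.253, unadjusted p 0.000951, adjusted p 0.846), from 5 KO libraries of day 14 with 5.12 to 8.21 CPM and 6 WT libraries of day 14 with 6.73 to 11.2 CPM, beside the day 0 values above. Col4a2 had -0.43 (SE 0.116, adjusted p 0.882) and Lamb1 -0.31 (SE 0.0937, adjusted p 0.988). For all 13 basement membrane genes the KO effect was lower at day 14 than at day 0 (median -0.24), and for 7 of 12 elastic fibre genes (median -0.03), which became 4 of 12 on the log2(FPKM + 1) scale, where the basement membrane count was again 13; over all genes the median was 0.01 and 48.9% lay below 0. Whether these classes differ from each other was not tested.

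Averaged over a class in each library, as the mean log2 CPM of its genes minus their mean over 17 libraries, elastic fibre genes had values of -0.14 to 0.26 in KO and -0.19 to -0.04 in WT at day 14, and of 0.18 to 0.36 in KO and -0.14 to 0.17 in WT at day 0. Both KO libraries of day 0 lay above all WT libraries of that day, and of the 5 KO libraries of day 14, 3 lay above the WT range of that day and 2 within it. Basement membrane genes had -0.33 to 0.09 in KO and -0.07 to 0.07 in WT at day 14, and 0.12 to 0.26 in KO and -0.02 to 0.11 in WT at day 0. KO day 14 replicate 2 was the highest of its group in all 5 larger classes, and without it the day 14 median over day 0 in KO was -0.66 for fibrillar collagens, -0.28 for elastic fibre genes and -0.31 for small proteoglycans and matricellular genes, against -0.49, -0.16 and -0.22 with it. WT day 0 replicate 4 was the lowest of its group for 34 of the 45 genes.

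**Figure D5:**
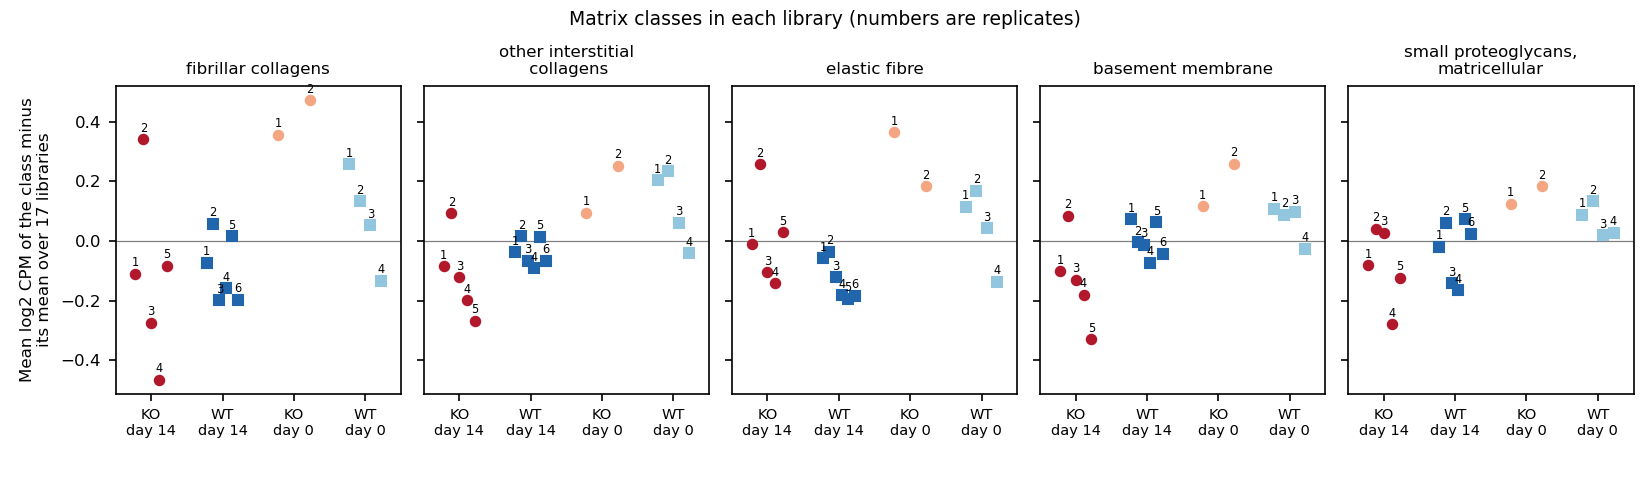
Mean log2 CPM of each class in each library, minus its mean over the 17 libraries; numbers are replicates. KO day 14 replicate 2 lies above the rest of its group in each of the 5 classes, and WT day 0 replicate 4 lies below the rest of its group in 4 of them.

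Genes that vary most like 2 central members were sought among 10623 genes of at least 10 CPM over the 17 libraries. Most like Eln were Ggcx, the vitamin K-dependent gamma-glutamyl carboxylase (r of 0.892), Mmp14, a membrane-bound collagenase (0.876), C6 (0.831), Cd81 (0.828) and Loxl1 (0.814). Most like Col1a1 were Col3a1 (0.939), Loxl1 (0.928), Pcolce, the enhancer of procollagen C-proteinase (0.911), Fam162a (0.907) and Cd81 (0.906). These lists describe libraries that share groups and scaling.

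Of 88 tested genes of the wider matrix pathway, in 4 lists, 0 passed the edgeR test in any of the 7 comparisons. Between days over both genotypes 5 were higher and 21 lower at an unadjusted p under 0.05, against 7.25% and 6.71% of all genes, DESeq2 called 9, against 2.51%, and limma-voom 0; the median was -0.05. For collagen synthesis and processing (21 genes) the counts were 1 higher and 4 lower, for matrix breakdown and inhibitors (18 genes) 4 and 2, for other structural matrix genes (33 genes) 0 and 13, and for matrix receptors (16 genes) 0 and 2. Adamts5, an aggrecan- and versican-cleaving protease, lay at 0.32 on the log2 scale (SE 0.0698, adjusted p 0.0616). Lamb3, a chain of an epithelial laminin, had -0.24 (SE 0.0545, adjusted p 0.0639), and Dag1, the laminin receptor dystroglycan, -0.21 (adjusted p 0.0761). Adamts3, a procollagen N-proteinase, had 0.57 (SE 0.145, adjusted p 0.0887) and Pcolce -0.25 (SE 0.0753, adjusted p 0.143). In WT alone the protease inhibitor Timp1 had 0.71 (SE 0.194, adjusted p 0.260) and the collagen receptor subunit Itga2 -0.27 (SE 0.0793, adjusted p 0.285).

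Between genotypes over both days, 5 genes of the same lists were higher and 7 lower in KO at an unadjusted p under 0.05, against 5.27% and 4.87% of all genes. DESeq2 called 1, against 0.696% of all genes, and limma-voom 0. Mmp14, which cleaves collagen at the cell surface, had 0.22 (SE 0.0634, adjusted p 0.212), the procollagen N-proteinase Adamts14 -0.46 (SE 0.132, adjusted p 0.217) and the transmembrane collagen Col23a1 -0.19 (SE 0.0489, adjusted p 0.187). Prelp, a basement-membrane-anchoring proteoglycan, had 0.28 (SE 0.0695, adjusted p 0.444) at day 0, and the laminin receptor subunit Itga6 -0.49 (SE 0.148, adjusted p 0.348) at day 14. At day 14, 29 of the 33 other structural matrix genes had values below 0, with a median of -0.10.

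Markers of other lung cells moved with some of these values and not with others. One list held 10 markers of pericytes and of smooth muscle, which makes elastin in airway and vessel walls. The 10 markers summed to 455.4 to 588.4 FPKM in KO and 425.1 to 508.0 FPKM in WT at day 14. At day 0 they summed to 535.5 to 554.0 FPKM in KO and 419.1 to 519.0 FPKM in WT. Of them 7 at day 14 and 9 at day 0 had values above 0, with medians of 0.16 and 0.31; 4 on each day had an unadjusted p under 0.05, all higher in KO, against 4.92% of all genes at day 14 and 3.15% at day 0, and 0 passed on either day by edgeR, DESeq2 or limma-voom. Over both days 6 of the 10 were higher at an unadjusted p under 0.05, against 5.27% of all genes. DESeq2 called 1, against 0.696% of all genes. The 6 mesothelial markers summed to 132.6 to 200.5 FPKM in KO and 133.3 to 175.2 FPKM in WT at day 14, with 6 of 6 values above 0, a median of 0.17 and 1 higher at an unadjusted p under 0.05. The 10 fibroblast markers summed to 2893 to 3499 FPKM in KO and 2921 to 3372 FPKM in WT at day 14, and to 2869 to 3018 FPKM in KO and 2652 to 3149 FPKM in WT at day 0; between days over both genotypes 4 of 10 had values above 0 and 6 below, with a median of -0.08. The 8 endothelial markers, from cells that lay down capillary basement membrane, summed to 1939 to 2121 FPKM in KO and 1987 to 2218 FPKM in WT at day 14, with 2 of 8 values of KO over WT above 0 and a median of -0.06. At day 0 they summed to 2028 to 2090 FPKM in KO and 2063 to 2327 FPKM in WT. Then 3 of 8 values of KO over WT lay above 0, with a median of -0.08. Basement membrane genes on that day had 10 of 13 values above 0 and a median of 0.08. The 8 alveolar epithelial markers, from cells that also rest on basement membrane, summed to 21370 to 24990 FPKM in KO and 21430 to 25180 FPKM in WT at day 14, and to 25360 to 28140 FPKM in KO and 20890 to 25080 FPKM in WT at day 0. Most of this sum was Sftpc (17580 to 21010 FPKM in KO at day 14), and most of the fibroblast sum was Inmt (2104 to 2511 FPKM). These 2 sums therefore mainly follow 1 gene each. Of the 8 alveolar markers 4 were lower in KO than in WT at day 14 at an unadjusted p under 0.05, against 4.03% of all genes, and 0 higher. In KO between days 7 of 8 lay below 0 with a median of -0.17, and 3 were lower at an unadjusted p under 0.05, against 4.72% of all genes. Lymphocyte markers (8 genes) summed to 43.3 to 63.4 FPKM in KO and 73.0 to 113.0 FPKM in WT at day 0. Adipose markers (8 genes) summed on that day to 73.7 to 154.1 FPKM in KO and 50.5 to 68.1 FPKM in WT. The 2 KO libraries of day 0 differed in them. As mean log2 CPM minus the mean over 17 libraries, adipose markers lay at -0.47 in replicate 1 and 1.3 in replicate 2. WT libraries ran from -0.74 to -0.45 at day 0 and from -0.30 to 0.62 at day 14. KO libraries of day 14 ran from -0.37 to 0.98. Between days over both genotypes 7 of the 8 adipose markers had values above 0. Of these 1 passed the edgeR test, against 0.194% of all genes in either direction. In WT 8 of 8 lay above 0, with 4 higher at an unadjusted p under 0.05 by edgeR, against 923 of 19557 genes. In KO 2 of 8 lay above 0, with 1 higher, against 847 of 19557 genes. The adipose marker Ucp1 had 0.07 FPKM in KO day 0 replicate 1 and 16.31 FPKM in replicate 2. Every KO value of day 0 uses both libraries. Between days over both genotypes, values below 0 were found for 7 of 8 alveolar (median -0.13) and 6 of 8 endothelial markers (-0.06). The same held for 7 of 8 macrophage (-0.17) and 6 of 6 mesothelial markers (-0.11). At an unadjusted p under 0.05 by edgeR, 3, 2, 1 and 0 of them were lower, against 6.71% of all genes. Values above 0 were found for 5 of 10 smooth muscle and pericyte, 4 of 6 airway, 5 of 8 lymphocyte and 7 of 7 heart and skeletal muscle markers. The part of these markers in the matrix values was not tested.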

How the data were processed

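Whole lung RNA of 17 libraries was used. The authors deposited expected counts, as RSEM gives them, in 1 column a library, and a joint table of FPKM values; the count unit is not in the file headers and was taken from the values, which are not whole in 13.9% to 17.1% of genes. Per the submitters' processing notes STAR 2.5.3, RSEM 1.3.0, limma 3.38.3 and build mm10 were used, and per the labels' protocols the kits were Qiagen RNeasy and Illumina TruSeq v4. Strand setting, annotation release and filters are not given in the sources used here.

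Members and lists were chosen with earlier results of these data known. Expected counts were rounded to whole numbers, filtered with filterByExpr by group (19557 of 54146 genes kept) and scaled by TMM (0.977 to 1.01). In edgeR 4.0.16 under R 4.3.3, 1 model of 4 group means with no covariate was fitted to all 17 libraries (robust glmQLFit, glmQLFTest, two-sided; biological coefficient of variation 0.152), with Benjamini-Hochberg adjustment over all genes tested and a threshold of 0.05. The 7 comparisons were KO against WT at each day and averaged, day 14 against day 0 in each genotype and averaged, and the interaction. Each SE was computed as the size of the log2 value divided by the square root of F. DESeq2 1.42.0, limma-voom 3.58.1, other scaling and filters, log2(FPKM + 1) and log2(FPKM + 0.1) with limma, fits of 2 groups and leaving out each library were the alternatives; a fit with additive genotype and day terms was chosen after seeing the data. Named genes were members under the threshold, each class's highest FPKM, up to 3 smallest p-values per class and single comparison, the 3 smallest of the interaction, per pathway list the called or else the 3 smallest, and the 5 genes most like Eln and Col1a1 by Pearson r of log2 CPM (prior count 2). Other genes named are named to account for all 45 or were singled out after their values were seen. Gene coordinates are GENCODE M21 on GRCm38, the assembly of mm10; promoter sequences are RefSeq's. On simulated data of 19557 genes with the day 14 groups, the fit found 86% of 50 genes changed by 0.5 on the log2 scale and 98% of 50 changed by 1. The changed genes were drawn from those with a mean above 5 CPM and changed in KO at day 14 only. Libraries were drawn independently with none made outlying. All sets of 50 were changed in the same simulated data, and many changed genes ease the adjustment. The real day 14 comparison called 21 genes, and Loxl1 at 0.43 (SE 0.161) had an adjusted p of 0.441 by edgeR. These shares therefore do not give the power for the 45 genes at day 14, nor that of comparisons that use KO day 0. No library was a copy of another (chi-square per gene of at least 12.4 within groups).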

Additional observations from a re-analysis of the deposited data

Results flagged for a closer look

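A gap test within groups of 4 to 6 libraries (Dixon's) marked 17 of 135 gene and group pairs of the 45 genes. Chance marks about 1 in 20 of single pairs. The genes vary together across libraries, so the pairs are not independent and the count cannot be weighed against that rate. In 10 of the 17 the library was KO day 14 replicate 2, which was the highest of its group with Col1a2 at 733.2 CPM (the other 4 libraries 448.1 to 515.4), Col3a1 at 1402 CPM (602.4 to 800.7), Col5a2 at 198.0 CPM (129.7 to 145.1), Col6a2 at 373.1 CPM (252.6 to 279.2), Fbln1 at 73.7 CPM (51.2 to 54.7), Fbln5 at 200.8 CPM (146.7 to 157.3), Mfap4 at 877.4 CPM (626.4 to 672.1), Mfap5 at 47.4 CPM (29.2 to 32.1), Col18a1 at 109.2 CPM (87.1 to 92.7) and Sparc at 2049 CPM (1476 to 1604). In the same group Lamb2 was lowest in replicate 5, at 229.0 CPM (268.6 to 283.4). WT day 14 replicate 2 was highest with Col1a2 at 635.8 CPM (501.8 to 536.9), Col6a2 at 333.7 CPM (289.6 to 302.4) and Efemp2 at 44.98 CPM (37.3 to 38.8). At day 0, WT replicate 2 was highest with Efemp2 at 46.1 CPM (39.2 to 40.3) and Bgn at 1328 CPM (1208 to 1222), and WT replicate 4 lowest with Hspg2 at 332.6 CPM (379.1 to 385.7).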

How the results depend on the processing

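No paired analysis was possible because the numbers in the labels are unique to each library, so the groups share no replicate numbers. The S numbers in the sample titles run in separate blocks for the 4 groups. What they stand for is not given, and it cannot be told apart from group. Of the 87 named gene values, 2050 alternative values kept direction and side of the threshold, 68 were no longer past it, 34 came past it and 8 reversed; of the class medians, 1028 alternative values moved by less than the spread between libraries and 16 by more. KO day 0 has 2 libraries, so its comparisons, and every day effect in KO, have the least support; without 1 of them the other is assumed to vary like the rest. The cause of the changes below was not tested.

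Counts of the 45 genes called: between days over both genotypes 4, and 15 by DESeq2, 1 on log2(FPKM + 1) or log2(FPKM + 0.1), 0 on log2(FPKM + 1) without a filter, and 0 to 15 leaving out 1 library; between days in KO 0, 8 by DESeq2 and 0 to 8 leaving out 1 library; in WT 0, 1 by DESeq2 and 0 to 1 leaving out 1 (1 without WT day 14 replicate 5); KO against WT at day 14 0, 1 by DESeq2; over both days 0, 2 by DESeq2.

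Counts of all genes called: between days over both genotypes 38, and 61 without a filter, 19 by limma-voom, 490 by DESeq2, 16, 17 and 15 on log2(FPKM + 1), log2(FPKM + 0.1) and log2(FPKM + 1) without a filter, 78 with additive terms, and 0 to 251 leaving out 1 library. In WT between days 0, and 3 with RLE size factors, 5 without a filter, 1 by limma-voom, 113 by DESeq2 and 0 to 22 leaving out 1. In KO between days 0, and 93 by DESeq2, 4, 4 and 19 on the FPKM scales, 2 with only both groups fitted and 0 to 12 leaving out 1. For the interaction 0, and 9 by DESeq2, 4, 3 and 7 on the FPKM scales and 0 to 1 leaving out 1. KO against WT at day 0 gave 5, and 3 by limma-voom, 26 by DESeq2, 17 on log2(FPKM + 1) without a filter, 13 with only both groups fitted and 2 to 7 leaving out 1. At day 14 it gave 21 and 109 by DESeq2, and over both days 20, and 136 by DESeq2, 11 on either filtered FPKM scale, 36 with additive terms and 12 to 26 leaving out 1.

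Class medians that moved by more than the spread were, leaving out 1 library, those of day 14 over day 0 in KO (fibrillar collagens -0.66 to -0.39, elastic fibre -0.28 to -0.076, basement membrane -0.37 to -0.15, small proteoglycans and matricellular -0.31 to -0.19), of KO over WT at day 0 (basement membrane 0.037 to 0.18) and of the interaction (other interstitial collagens -0.26 to 0.017, basement membrane -0.35 to -0.19). For the 2 matrix enzymes they were, on the log2(FPKM + 1), log2(FPKM + 0.1) and unfiltered log2(FPKM + 1) scales, -0.24, -0.26 and -0.26 between days in WT; -0.35 between days in KO and -0.30 over both genotypes on the unfiltered scale; and -0.23 and -0.25 for the interaction on the filtered scales. The filtered FPKM scales keep genes with at least 1 FPKM in at least 2 libraries; Adamts12 is left out there, and the value is that of Loxl2 alone. Values that reversed were KO over WT at day 0 for Col13a1 (-0.0036) and Adamts12 (-0.023) without KO day 0 replicate 1, and KO over WT at day 14 for Loxl2 without 1 of KO replicates 3 and 4 or WT replicates 1, 2, 4 and 5 (0.0026 to 0.077; over all left-out libraries -0.16 to 0.077).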
